A study of Mus musculus with 16 samples.

Results

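Fatty liver with inflammation can be produced in mice by very different diets, and 2 of them are set side by side here through their control livers. The comparison takes 4 livers labelled WT_NASH (numbers 17 to 20) and 4 labelled Ad_GFP_HFLMCD (numbers 9 to 12), that is 8 of the 16 livers of the series, chosen by these labels alone and described across all genes. The WT_NASH mice were Chrebpα-flox/flox animals given an adeno-associated virus that expresses GFP from the hepatocyte promoter TBG, with no Cre. For 12 weeks they received the NASH diet, in which fat supplied 40% and fructose 20% of the energy and cholesterol made up 2%. The Ad_GFP_HFLMCD mice were wildtype, began at 2 months of age a diet with 45% of calories from fat, no choline and 0.1% added methionine, and received an adenovirus expressing GFP. Their label gives 3 weeks of diet. Feeding went on for another 1 week after the virus, and whether the 3 weeks include it is not stated. The sources used here state neither the age of the WT_NASH mice nor the sex of either group. Diet, its length, the virus, the mouse line and possibly age all differ between the groups, so none of them can be told apart from the others, and the values below describe 2 disease models. No liver on regular chow was part of the comparison, so a gene that is higher in one model may equally be lower in the other. In the rest of the text "NASH-diet livers" are livers 17 to 20 and "HFLMCD-diet livers" are livers 9 to 12.

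As background, a diet rich in cholesterol and fructose loads the liver with sterol and with sugar carbon, and cells with ample sterol keep the transcription factor SREBP2 inactive while oxysterols switch on LXR. A diet without choline limits the synthesis of phosphatidylcholine, the phospholipid that coats very low density lipoproteins, and fat that cannot be exported stays in the hepatocyte. Choline and methionine share a methyl group cycle in the liver. Injured, fat-laden livers attract monocytes that become lipid-associated macrophages, and activated stellate cells lay down collagen.

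The libraries held 21254937 to 40327264 expected counts, estimated reads per gene that are not normalised. Each deposited table lists genes with an FPKM of at least 0.01, where FPKM counts fragments per kilobase of a transcript and is scaled to the library, and a gene that is not listed was taken as 0. In HFLMCD-diet livers 14.61% to 15.88% of the counts fell on the top 10 genes, and in NASH-diet livers 19.16% to 20.23%. The labels number the livers without saying that each is a separate animal, so the p-values rest on the spread among these libraries, which may be technical. Livers of a group differed by more than counting noise, with a chi-square per degree of freedom of 20.5 to 34.0 between pairs of HFLMCD-diet livers and 79.5 to 219.2 between pairs of NASH-diet livers. The liver label was matched by the albumin gene Alb, which had 24585 to 30700.2 FPKM in the HFLMCD-diet livers and 31445 to 41245 in the NASH-diet livers. All 15 hepatocyte markers were expressed in both groups. The 4 Y-linked genes examined were present in all 8 libraries.

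The 2 models differed in most of the expressed genome. Of 13488 genes tested with edgeR, 7971 (59.1%) passed an adjusted p of 0.05: 3805 (28.2%) were higher in NASH-diet livers and 4166 (30.9%) were lower. With a difference of at least 2-fold the balance was uneven, with 781 genes (5.79%) higher and 2354 (17.5%) lower. The FPKM of the 4 and 4 livers did not overlap in 73.4% of the tested genes. On the first principal component of the counts, with 80.9% of the variance, the HFLMCD-diet livers lay at -76.04 to -60.73 and the NASH-diet livers at 54.88 to 76.38. The second component, with 6.1%, spread the NASH-diet livers, with liver 17 at -33.79 and liver 20 at -15.44 against 28.16 for liver 18 and 22.06 for liver 19. Replicates of the NASH diet varied more, with a biological coefficient of variation of 0.184 against 0.121.

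How the libraries are scaled decides the direction of small differences. The edgeR fit divides counts by TMM factors, which centre the bulk of genes, and these factors were 1.216 to 1.282 in HFLMCD-diet livers and 0.772 to 0.853 in NASH-diet livers. After them the median log2 fold change of all tested genes was -0.01. On log2(FPKM + 0.1), which keeps the authors' scaling to the library total, the median was -0.61, only 7.1% of the calls were higher in NASH-diet livers, against 47.7% on counts, and 1019 genes called higher on counts were called lower. With each FPKM library centred on its median gene the share of higher calls was 60.9%. All 766 genes past 2-fold higher and all 2278 past 2-fold lower with a value on the FPKM scale kept their sign there. This is no test of those genes, because the median moved from -0.01 to -0.61, by less than 1 log2 unit. A shift of that size can hardly turn a gene past 2-fold. A log2 fold change below is always the edgeR value on counts, NASH diet over HFLMCD diet, and is relative to the bulk of genes. An FPKM is the authors' value in the library as scaled by them, so a gene with a log2 fold change near 0.6 can show equal FPKM in both groups, as Ecm1 did (0.62, 89.0 ± 16.9 and 88.8 ± 8.98 FPKM, SD, n = 4).

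**Figure D1:**
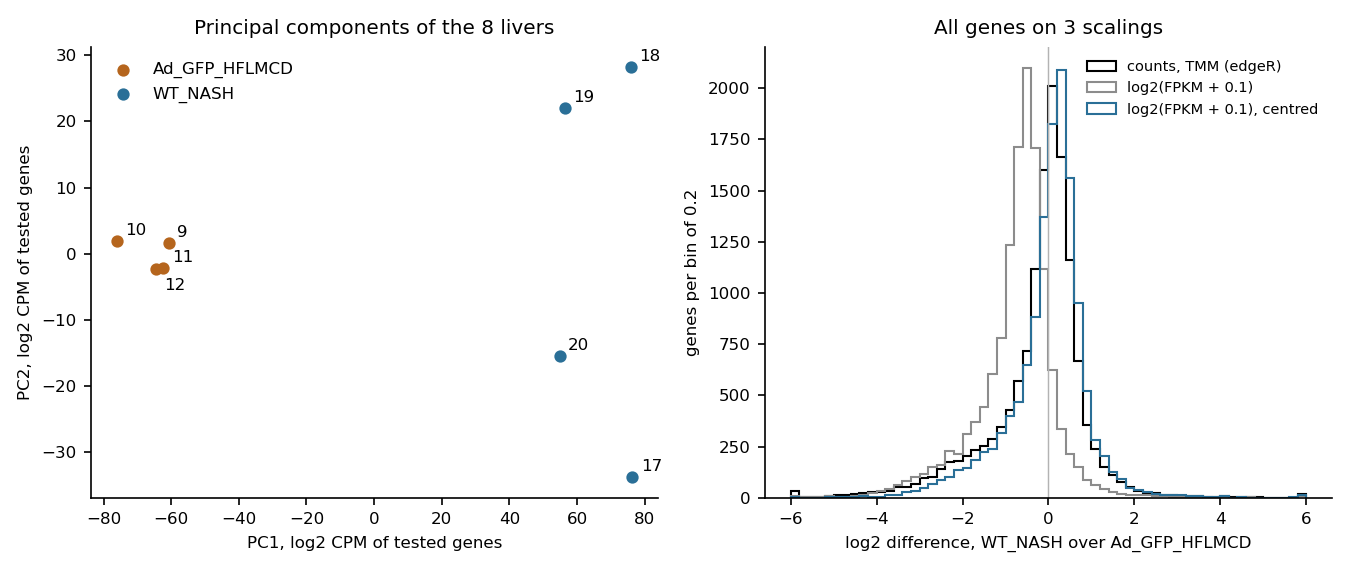
Left, the 8 livers on the first and second principal components of log2 CPM (counts scaled to library size), labelled by liver number; right, the number of genes per 0.2 step of the log2 difference between NASH-diet and HFLMCD-diet livers on 3 scalings, with genes beyond ±6 in the end bins. The groups separate on the first component, and the uncentred FPKM scale (grey) has a median of -0.61 where the count scale (black) has -0.01.

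The differences are described by function below, with lists chosen when earlier results of these data were known. Gene lists covering 44 pathways and cell types, with 746 of 755 distinct genes found in the tables, are given by the number of tested members called higher or lower and by the median log2 fold change, to be read against the 28.2% of all genes called higher, the 30.9% called lower and the overall median of -0.01. The reference itself depended on expression level. In 4 sets of tested genes ordered from low to high mean FPKM, the median log2 fold change was -0.63, -0.12, 0.08 and 0.25. List medians such as -0.53 for B and plasma cells and 0.17 for phosphatidylcholine synthesis lie within that range. Lists were not compared with genes of their own level. Members of inflammatory cells, matrix, cell division and cholesterol synthesis were lower in NASH-diet livers. Members of hepatocyte function, gluconeogenesis, amino acid breakdown and fatty acid oxidation were higher. In bulk liver RNA, fewer cells of a type and less RNA per cell cannot be told apart. A count of 0 below is edgeR's, and the count in that direction was also 0 at an unadjusted p under 0.05, by DESeq2 and by limma-voom, except that 1 cholangiocyte marker was higher at an unadjusted p. The lists overlap in part, and 126 of the 781 genes at least 2-fold higher and 229 of the 2354 at least 2-fold lower belonged to one.

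**Figure D2:**
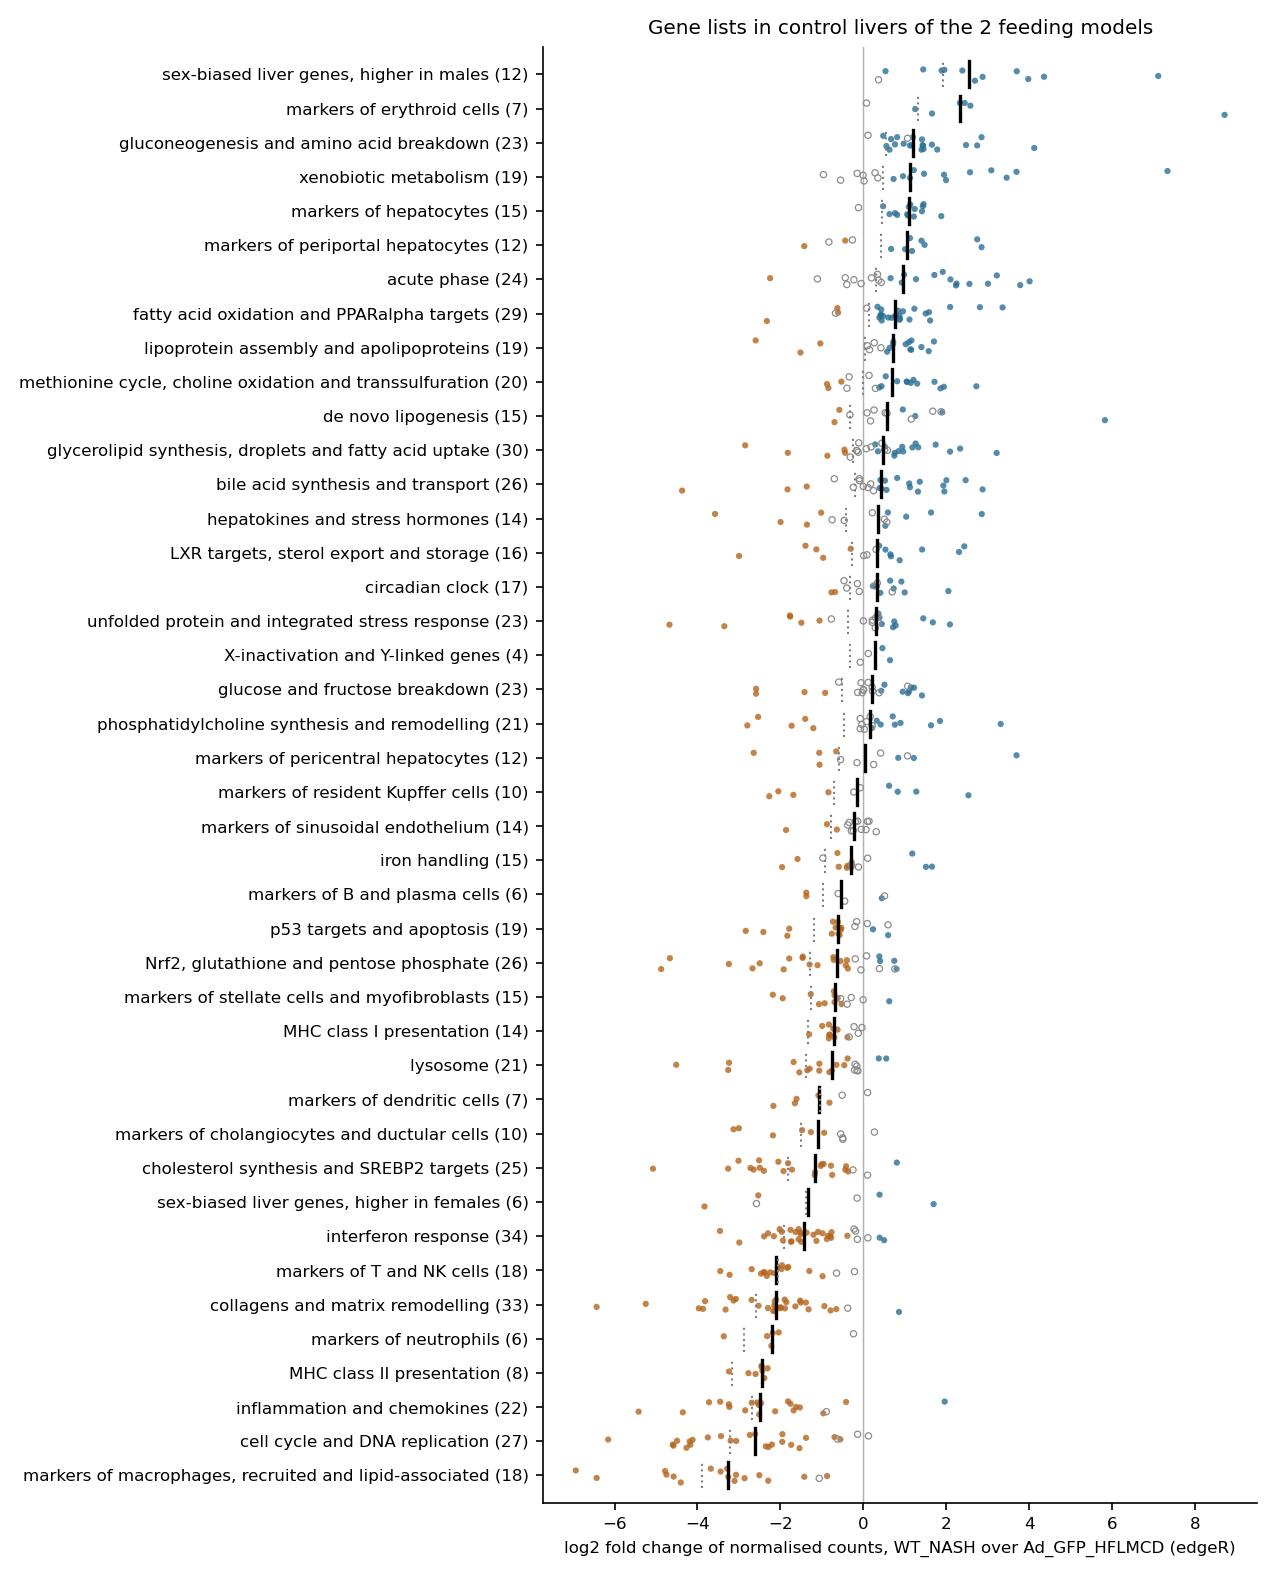
Log2 fold change of each tested member (points) of the gene lists with at least 4 tested members, numbers in brackets, ordered by the median (black bar). Filled points passed an adjusted p of 0.05, open points did not, and the dotted bar is the median on log2(FPKM + 0.1). Macrophage markers have the lowest median at -3.27 and male-biased liver genes the highest at 2.54.

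Genes of cholesterol synthesis were lower in NASH-diet livers than in HFLMCD-diet livers. Of 25 tested genes of sterol synthesis and other SREBP2 targets, 22 were lower in NASH-diet livers, 16 of them by at least 2-fold, and 1 was higher (median -1.17). Sqle, which encodes squalene epoxidase, an oxygen-dependent step that commits carbon to sterols, had 30.5, 28.9, 27.3 and 38.7 FPKM in livers 9 to 12 and 0.95, 0.58, 0.33 and 0.61 in livers 17 to 20. Every NASH-diet liver was far below every HFLMCD-diet liver, and the log2 fold change was -5.07 (SE 0.27, adjusted p = 1.32e-06). Steps of the mevalonate pathway were lower too, with mevalonate kinase Mvk at -2.50, the isomerase Idi1 at -3.01 and the synthase Hmgcs1 at -2.65. Srebf2, which encodes SREBP2 itself, was at -0.78. The single member called higher was Ebp, a sterol isomerase, at 0.81, with overlapping FPKM of 68.5 to 80.2 and 74.6 to 94.5.

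The Hmgcs1 promoter is shown because it was the only member with a window in which the core of a sterol regulatory element was found. The letters searched were TCACNCCAC, on both strands, in windows of 250 bases before to 50 bases after each annotated start, from RefSeq on GRCm38.p6. They occurred in 1.44% of 27025 genes and in 1 of the 17 list members that had a window. The match lies on the sense strand, 137 bases before the start, in the stretch at chr13:119690194-119690242 on the plus strand, with the match in capitals. No match in the other windows says only that these letters are not there.
Hmgcs1: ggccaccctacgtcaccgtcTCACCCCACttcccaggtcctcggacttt
In the same livers Hmgcs1 had 95.1, 92.5, 93.9 and 141 FPKM in livers 9 to 12 and 8.63, 10.3, 12.7 and 12.4 in livers 17 to 20. Liver 12 was the highest of its group, and the groups did not overlap.

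Sterol export and storage moved in both directions. Among 16 tested LXR targets and genes of sterol export and storage, 8 were higher and 5 lower in NASH-diet livers (median 0.34, but -0.27 on the FPKM scale). Abcg5, one subunit of the transporter that pumps sterols into bile, had 28.6, 22.1, 27.8 and 30.9 FPKM in livers 9 to 12 and 59.1, 100.3, 132 and 60.4 in livers 17 to 20, without overlap (log2 fold change 2.31, SE 0.26, adjusted p = 5.27e-05). Its partner Abcg8 was at 2.43 and the plasma enzyme Lcat, which esterifies cholesterol on HDL, at 1.42. Abca1, the exporter that builds HDL, was at 0.87 with FPKM ranges that overlapped. In the other direction, Soat1, the cholesterol esterifying enzyme of macrophages and other cells, was at -3.0 (6.29 ± 1.59 and 0.50 ± 0.147 FPKM, SD, n = 4), and Npc2, a lysosomal sterol carrier, at -1.13.

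Bile acid genes were higher more often than lower. Of 26 tested, 15 were higher and 3 lower (median 0.43, but -0.20 on the FPKM scale). Cyp8b1, the 12-alpha-hydroxylase that makes cholic acid, had 72.5, 39.1, 25.9 and 21.4 FPKM in livers 9 to 12 and 83.4, 86.0, 180 and 231 in livers 17 to 20. The lowest NASH-diet liver was just above the highest HFLMCD-diet liver, and the log2 fold change was 2.47 (SE 0.44, adjusted p = 0.000858). Cyp7b1, of the alternative synthesis pathway, was at 2.87, the bile acid-CoA ligase Slc27a5 at 2.0 and the uptake transporters Slco1a1 at 1.95 and Slc10a1 at 1.93. Cyp7a1, the rate-limiting enzyme of the classic pathway, was not called (0.11, adjusted p = 0.609), with 44.8 to 59.96 FPKM in HFLMCD-diet livers and 23.4 to 44.0 in NASH-diet livers. The lower members were the basolateral exporters Slc51b at -4.37 and Abcc4 at -1.37, and Slco1a4 at -1.83. Slc51b reached -5.38 without liver 17, which had 0.86 FPKM against 0.00 to 0.39 in livers 18 to 20.

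Fat synthesis showed no common direction, and it split the NASH-diet livers. Of 15 lipogenesis genes, 4 were higher (Scd1, Me1, Elovl5 and Srebf1) and 2 lower (the desaturases Fads1 and Fads2), with a median of 0.57 on counts and -0.33 on the FPKM scale. Scd1, the desaturase that makes oleate, stood apart: 54.5, 31.7, 39.1 and 51.5 FPKM in livers 9 to 12 against 369, 608, 3308 and 2388 in livers 17 to 20 (log2 fold change 5.82, SE 0.70, adjusted p = 7.42e-05). Within the NASH-diet group, livers 19 and 20 had the high values and livers 17 and 18 the low ones. Fasn, the fatty acid synthase, had 53.9 to 69.7 FPKM in HFLMCD-diet livers and 6.58, 9.71, 66.5 and 44.6 in livers 17 to 20, so that its fold change was not called (-0.33, SE 0.58, adjusted p = 0.655). The malic enzyme gene Me1, which supplies NADPH, was at 1.90, with 37.1 and 25.5 FPKM in livers 17 and 18, within the HFLMCD-diet range, and 98.8 and 150 in livers 19 and 20. Srebf1, the insulin-driven regulator of the pathway, was at 0.95 (adjusted p = 0.0443), with 58.0 to 84.2 FPKM against 29.9, 84.8, 149 and 99.96. That call ended without any single liver except liver 17, with adjusted p from 0.0616 to 0.141, and by DESeq2 and limma-voom. The call of the elongase Elovl5 (1.25, adjusted p = 0.0339) ended without any single HFLMCD-diet liver or without liver 19 or 20 (adjusted p 0.0571 to 0.111).

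Sugar genes repeated the split. Of 23 genes of glucose and fructose breakdown, 8 were higher and 4 lower (median 0.21, but -0.51 on the FPKM scale). Khk, fructokinase, had 163 to 198 FPKM in HFLMCD-diet livers and 142, 168, 376 and 336 in livers 17 to 20 (log2 fold change 1.07, adjusted p = 0.00596). Pklr, the liver pyruvate kinase, had 101 to 125 FPKM against 26.9, 39.4, 293 and 257, so livers 17 and 18 lay below and livers 19 and 20 above every HFLMCD-diet liver. It was not called (1.07, SE 0.63, adjusted p = 0.171), and without liver 17 it was (1.42, adjusted p = 0.0345). Mlxipl, which encodes the sugar-sensing factor ChREBP, was at 1.22 (adjusted p = 0.000153), with 38.9 to 48.5 and 50.1 to 80.4 FPKM, and the arrestin-like gene Txnip at 0.95 with overlapping FPKM. The 4 members called lower were the isoenzymes of other tissues and of cells other than hepatocytes, Pkm and Hk2 at -2.59, Hk1 at -1.42 and Aldoa at -0.92. The macrophage markers listed below moved with them, and their part in these values was not tested.

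**Figure D3:**
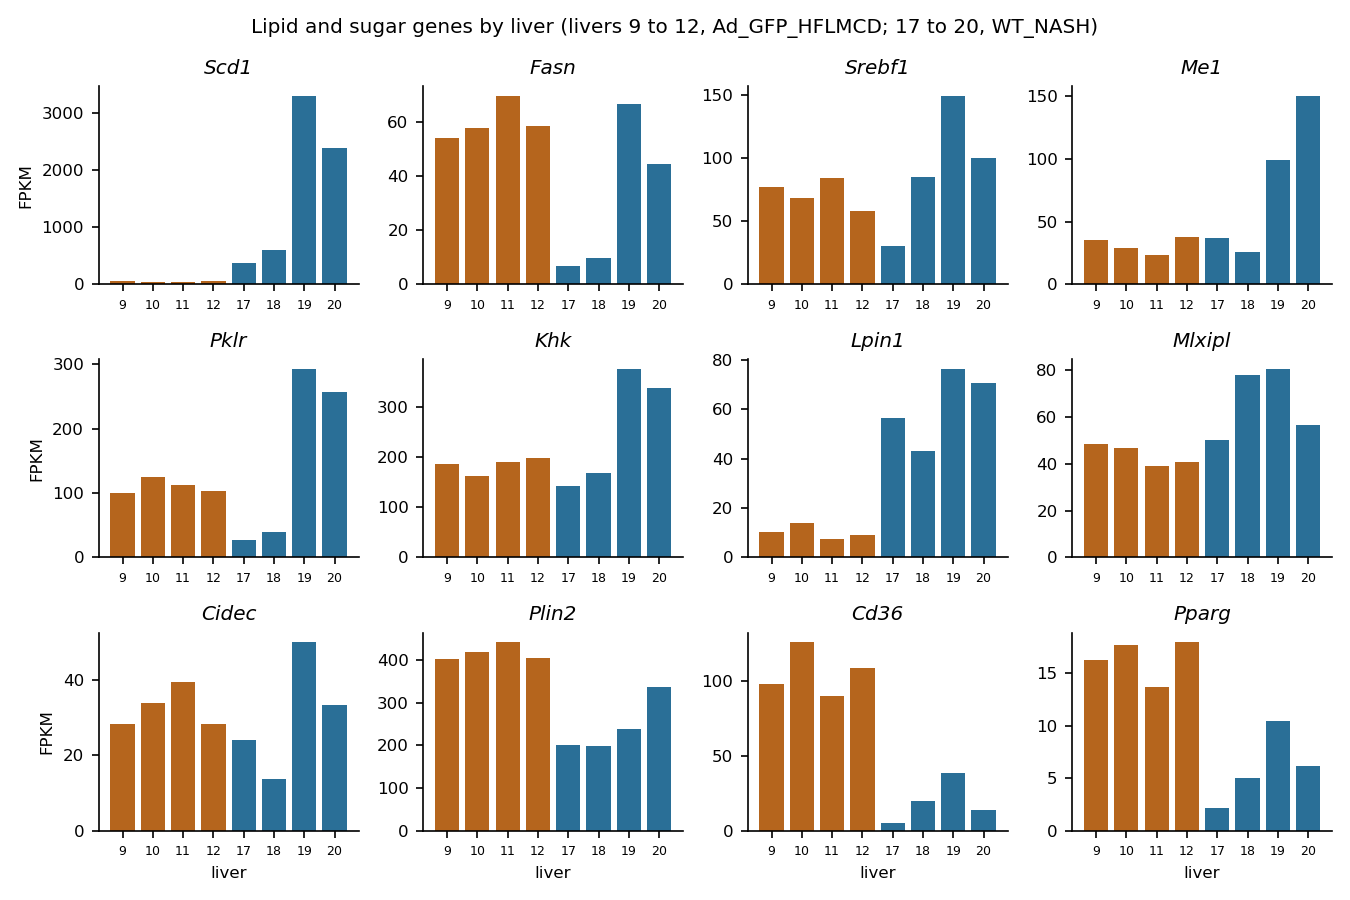
FPKM of 12 lipid and sugar genes in each liver (bars, linear axes from 0), livers 9 to 12 on the HFLMCD diet and 17 to 20 on the NASH diet. Livers 19 and 20 have the tall bars of Scd1, Me1, Pklr and Khk, while Cd36 and Pparg are lower in all 4 NASH-diet livers.

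Genes of triglyceride assembly, droplets and uptake had 15 members higher and 5 lower of 30 tested (median 0.48, but -0.25 on the FPKM scale). The phosphatidate phosphatase Lpin1 was at 3.21 (10.2 ± 2.65 and 61.7 ± 15.0 FPKM, SD, n = 4), the droplet coat Plin4 at 1.74 and monoglyceride lipase Mgll at 1.18. The main droplet coat Plin2 had 401 to 442 FPKM against 199 to 335 and was not called (-0.16, adjusted p = 0.351), although without liver 20 it was (-0.32, adjusted p = 0.0244). Cidec, which fuses droplets, was also not called (0.51, adjusted p = 0.167), except without liver 18 (0.75, adjusted p = 0.0172). Lower in NASH-diet livers were lipoprotein lipase Lpl at -2.85, the fatty acid receptor Cd36 at -1.82, the adipogenic regulator Pparg at -0.87, Lpin3 at -0.46 and Hsd17b13 at -0.44. Cd36 had 97.5, 126, 89.6 and 109 FPKM in livers 9 to 12 and 5.31, 20.1, 38.8 and 13.8 in livers 17 to 20, with no overlap. The Pparg call (adjusted p = 0.0441) ended without any single liver except 17 and 19, with adjusted p from 0.0552 to 0.1.

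Lipoprotein genes were higher in 12 and lower in 3 of 19 tested members (median 0.71 on counts, 0.03 on the FPKM scale). The apolipoproteins Apoc1 at 1.70, Apoa2 at 1.40 and Apoe at 1.02 were among the higher ones, as was hepatic lipase Lipc at 1.13, and so was the microsomal transfer protein Mttp at 0.71, with 71.2 to 81.8 FPKM against 65.6 to 108. Apoa4, which rises in fatty liver, was not called (0.15, adjusted p = 0.774), with 877 to 1255 FPKM against 264 to 1575. The lower members were Angptl8, an insulin-induced inhibitor of lipoprotein lipase, at -2.60 (-1.90 without liver 11, which had 295 FPKM against 45.6 to 111 in the rest of its group), Sort1 at -1.52 and Apobec1 at -1.04.

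Several genes of the methyl cycle were higher in the NASH-diet livers. Of 20 genes of the methionine cycle, choline oxidation and transsulfuration, 13 were higher in NASH-diet livers and 3 lower (median 0.68 on counts, 0.00 on the FPKM scale). General hepatocyte markers, described below, moved the same way with a median of 1.09, and their part in this list was not tested. Gnmt, the glycine methyltransferase that consumes excess methyl groups, had 308, 186, 283 and 222 FPKM in livers 9 to 12 and 560, 791, 659 and 469 in livers 17 to 20, without overlap (log2 fold change 1.94, SE 0.22, adjusted p = 5.38e-05). Ahcy, which clears the product of methylation reactions, was at 1.86, the methionine adenosyltransferase of liver Mat1a at 1.21, the cysteine dioxygenase Cdo1 at 1.30 and Cbs, the entry to transsulfuration, at 1.14. Nnmt, which methylates nicotinamide, was at 2.72. The isoenzyme Mat2a, typical of dividing and non-liver cells, was lower (-0.88), as was Mtr, which remethylates homocysteine with folate, at -0.84. Bhmt, which remethylates homocysteine with choline-derived betaine, was not called (-0.40, SE 0.45, adjusted p = 0.473), with 569 to 919 FPKM in HFLMCD-diet livers and 179, 722, 454 and 153 in livers 17 to 20.

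Phosphatidylcholine synthesis was divided, with 9 members higher and 5 lower of 21 (median 0.17, but -0.46 on the FPKM scale). Gpcpd1, which breaks glycerophosphocholine down and frees choline, had 27.1, 17.6, 21.6 and 15.0 FPKM in livers 9 to 12 and 139, 148, 128 and 104 in livers 17 to 20 (log2 fold change 3.31, SE 0.22, adjusted p = 2.81e-06). Chpt1, the final step of the choline branch, was at 1.85. The first and the alternative step did not differ by this test: choline kinase Chka had -0.04 (adjusted p = 0.824) and the methyltransferase Pemt -0.07 (adjusted p = 0.547). Both had lower FPKM in every NASH-diet liver, with 234 to 270 against 133 to 179 for Pemt, and log2 differences of -0.67 and -0.70 on the FPKM scale, where the median of all genes was -0.61. The lower members were Lpcat1, Lpcat2 (-2.54), Lpcat4, Slc44a2 and Pcyt1b. Pcyt1b, which makes CDP-choline, had FPKM of 0.14 to 0.30 and 0.01 to 0.03.

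Most genes of fatty acid oxidation were higher in the NASH-diet livers on counts. Of 29 tested genes of oxidation and of the receptor PPARα, 24 were higher and 3 lower (median 0.77 on counts, 0.13 on the FPKM scale), beside a median of 1.09 for general hepatocyte markers. Mitochondrial members called higher on counts had lower FPKM in NASH-diet livers, such as Hadha (0.43, 128 ± 1.99 and 112 ± 3.95 FPKM) and Hadhb (0.34, 135 ± 4.72 and 110 ± 7.07 FPKM, SD, n = 4), which encode the trifunctional protein. Ppara, the receptor, was at 1.23 (42.3 ± 3.47 and 64.4 ± 4.50 FPKM, SD, n = 4), the peroxisomal enzyme Ehhadh at 1.5 and the microsomal hydroxylase Cyp4a10 at 2.81. Cyp4a14 had 113, 37.8, 84.6 and 71.9 FPKM against 437, 178, 142 and 82.0, with overlap (2.09, and 1.42 without liver 17). The thioesterase Acot1 was at 3.36 and its near-identical neighbour Acot2 at -0.63, and since reads can be divided between such copies both values are uncertain. Cpt1a, the gate to mitochondrial oxidation, was at 0.47 on counts (adjusted p = 0.00545) but at -0.15 on the FPKM scale, with 158 to 196 and 149 to 177 FPKM. Besides Acot2, the lower members were the uncoupling protein Ucp2, common in macrophages, at -2.33 and the ketone enzyme Bdh1 at -0.61.

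Hepatocyte functions of the fasted and fed liver were higher in the NASH-diet livers. Of 23 genes of gluconeogenesis and amino acid breakdown, 21 were higher and 0 lower (median 1.19). Pck1, the cytosolic gate of gluconeogenesis, had 305, 215, 386 and 352 FPKM in livers 9 to 12 and 1747, 1721, 1008 and 1377 in livers 17 to 20 (log2 fold change 2.85, SE 0.26, adjusted p = 1.31e-05). G6pc, which releases free glucose, had 16.4, 34.3, 42.5 and 45.8 FPKM against 148, 211, 464 and 781 (4.12, adjusted p = 0.000112), with livers 19 and 20 again the highest. The transaminase Got1 was at 2.47, the serine dehydratase Sds at 2.74 and the urea cycle enzymes Asl and Cps1 at 1.65 and 1.43. General hepatocyte markers had 14 members higher and 0 lower of 15 (median 1.09), with Alb at 1.07, the transport protein Ttr at 1.24 and the regulator Hnf4a at 1.09. Serpina1c was at 1.88, in a family of near-identical copies that can share reads.

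Zonation genes gave 8 higher and 2 lower of 12 periportal markers (median 1.06), and 3 higher and 4 lower of 12 pericentral markers (median 0.05, but -0.59 on the FPKM scale and -0.10 without liver 17). Periportal Cyp2f2 was at 1.47, while Cdh1 at -1.43 and Hsd17b13 were the lower ones. Among pericentral markers Cyp2c37 was at 3.69 and Cyp2e1 at 1.22, and the Wnt targets Axin2 and Lgr5 were at -1.06, the ammonium transporter Rhbg at -2.64 and Gulo at -0.65. Glul, glutamine synthetase, was not called (-0.15, adjusted p = 0.416).

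Detoxification genes followed the hepatocyte direction, with 12 of 19 xenobiotic genes higher and 0 lower (median 1.12). Cyp2c29 had 10.53, 9.06, 15.6 and 6.07 FPKM in livers 9 to 12 and 607, 661, 1711 and 1396 in livers 17 to 20, a difference of 7.33 (SE 0.47, adjusted p = 2.47e-06). Its relatives Cyp2c54 (3.45) and Cyp2c50 (3.09) were higher too, with reads that similar copies can share. Por, the reductase that feeds electrons to all microsomal cytochromes, was at 1.99. Cyp2b10, a target of the drug receptor CAR, was too low to be tested, with 0.02 to 0.15 FPKM in HFLMCD-diet livers and 1.44, 2.12, 0.04 and 0.05 in livers 17 to 20.

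Genes that are higher in male than in female liver were the list with the highest median (2.54), with 11 higher and 0 lower of 12. The urinary protein gene Mup7 was at 7.11, Serpina1e at 4.36, Hsd3b5 at 3.98 and the elongase Elovl3 at 3.70. Cyp2u1 had 3.07 to 3.22 FPKM against 4.94 to 6.23 (1.44). Of the 6 tested genes that are higher in females, 2 were higher (Acot3 and Fmo2) and 2 lower (Cyp2a4 at -2.53 and Cyp3a44 at -3.83, or -4.46 without liver 17), with a median of -1.34. Y-linked Ddx3y had 11.4 to 14.4 and 10.9 to 12.4 FPKM, a value of 0.46 on counts and -0.16 on the FPKM scale, and Eif2s3y was at 0.64 on counts and 0.02 on the FPKM scale. These were the 2 Y-linked genes called higher of 4 tested (median 0.29 on counts, -0.32 on the FPKM scale).

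Macrophage genes made the widest difference in the other direction. Of 18 tested markers of recruited and lipid-associated macrophages, 0 were higher and 17 lower in NASH-diet livers, 16 by at least 2-fold (median -3.27), and their summed FPKM was 1348 to 1903 against 61.7 to 137. Gpnmb, a surface glycoprotein of lipid-loaded macrophages, had 113, 153, 155 and 149 FPKM in livers 9 to 12 and 0.08, 0.20, 1.95 and 0.67 in livers 17 to 20 (log2 fold change -6.93, SE 0.74, adjusted p = 3.55e-05, and -8.13 without liver 19). Trem2, the lipid receptor that marks the same cells, had 25.0, 32.8, 34.5 and 33.6 FPKM against 0.20, 0.52, 1.49 and 1.03 (-4.57, SE 0.34, adjusted p = 5.17e-06). The highest NASH-diet liver for both genes was liver 19. Cd68, a lysosomal protein of all macrophages, was at -3.29, with 89.1 to 132 and 4.88 to 8.99 FPKM. Lysozyme Lyz2 (-3.68), galectin Lgals3 (-4.40), the integrin Itgax (-4.75), the monocyte receptors Ccr2 (-3.44) and Cx3cr1 (-3.07) and the elastase Mmp12 (-6.43, and -7.07 without liver 19) moved the same way.

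Resident Kupffer cell markers went both ways. Their summed FPKM was lower in NASH-diet livers, at 303.3 to 566.2 against 148.5 to 212.9, on a scale where the median gene was at -0.61. Of 10 tested, 4 were higher and 4 lower (median -0.15 on counts, -0.70 on the FPKM scale, 0.05 on the centred FPKM scale and 0.21 without liver 10). Clec4f, found in Kupffer cells alone, was not called (-0.23, adjusted p = 0.554), with 31.4, 54.0, 18.9 and 17.7 FPKM in livers 9 to 12 and 17.1, 11.8, 21.0 and 17.2 in livers 17 to 20. The higher members were the scavenger receptors Cd163 at 2.53 and Timd4 at 1.28, with C6 at 0.83 and Fcna at 0.62. Timd4 lost its call without liver 11, 12, 17 or 20 (adjusted p 0.0524 to 0.0688). Cd5l (-2.05), Marco (-2.27), Il18bp (-1.69) and Vsig4 (-0.84) were lower. In livers 9 and 10 Timd4 had 1.37 and 1.6 FPKM, within the NASH-diet range of 1.26 to 1.84, and in livers 11 and 12 it had 0.37 and 0.36.

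Inflammatory signals were lower with the macrophage markers. Of 22 tested genes of inflammation and chemokines, 1 was higher and 20 lower (median -2.49). Ccl2, which draws monocytes from blood, had 14.8, 19.6, 16.8 and 18.4 FPKM in livers 9 to 12 and 0.18, 0.24, 0.82 and 0.80 in livers 17 to 20 (log2 fold change -4.35, SE 0.31, adjusted p = 3.72e-06). Ccl7 was at -5.42, the cytokine Tnf at -3.23 and Tnfaip3, a brake on NF-κB, at -2.85. Tnf had low levels, 1.06 to 2.40 against 0.00 to 0.25 FPKM. Without liver 19 Tnf was at -4.16, and without liver 20 Ccl7 was at -6.44. Cxcl13, which attracts B cells, was the higher one, at 1.96 (adjusted p = 0.0174, and 0.0547 without liver 17), with 0.10 to 0.71 and 0.31 to 1.70 FPKM.

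Other white cells were lower as well, at low levels. Among 18 tested markers of T and NK cells, 16 were lower and 0 higher (median -2.11, summed FPKM 24.3 to 54.5 against 3.38 to 6.0). Ccl5 was at -2.69, granzyme Gzma at -3.45, Cd3e at -2.33 and Cd8a at -1.84, the last with 0.66 to 1.34 and 0.08 to 0.20 FPKM. Neutrophil markers had 5 lower and 0 higher of 6 tested (median -2.20), with the integrin Itgam, shared with macrophages, at -3.37, Csf3r at -2.04 and S100a8 at -2.22. Dendritic cell markers had 5 lower and 0 higher of 7 (median -1.08), with Flt3 at -2.17 and Siglech at -1.61, all under 0.8 FPKM for these genes. B and plasma cell markers had 1 higher and 2 lower of 6 (median -0.53), with Cd79b at -1.38, Ms4a1 at -1.37 and Jchain at 0.44, but at -0.17 on the FPKM scale.

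The interferon response was lower in NASH-diet livers, with 28 members lower and 2 higher of 34 (median -1.43). Isg15, a ubiquitin-like protein made on interferon signalling, had 22.0, 17.3, 25.7 and 25.8 FPKM in livers 9 to 12 and 5.70, 5.75, 4.74 and 3.87 in livers 17 to 20 (log2 fold change -1.56, SE 0.19, adjusted p = 9.09e-05). Oasl1, of the oligoadenylate synthetase family, had 17.4, 15.0, 24.8 and 22.6 FPKM against 1.49, 1.37, 1.75 and 1.88 (-2.99, adjusted p = 2.02e-06), and Oasl2 was at -2.39. Cxcl10, the chemokine that recruits activated T cells, had 21.0 to 28.1 FPKM against 0.33 to 2.29 (-3.46, adjusted p = 2.52e-05) and Cxcl9 10.4 to 15.1 against 0.88 to 4.22 (-1.56). Livers 11 and 12 had the highest Isg15 and Oasl1 of their group. The higher members were Bst2 at 0.39 and Iigp1 at 0.50, which were -0.24 and -0.17 on the FPKM scale. The Iigp1 call (adjusted p = 0.0341) ended without liver 9, 10, 11, 12, 17 or 18. The HFLMCD-diet mice alone carried an adenovirus, given 1 week before dissection, and its part in these values cannot be told apart from that of the diet.

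Promoters of 4 of these genes are shown because most members were lower and most of those with a window share a motif. The letters TTTCNNTTT, part of the element bound by interferon-activated factors, were searched on both strands in the same windows. They were found in 12.1% of the 27025 genes and in 21 of the 27 interferon members with a window (77.8%). Matches are in capitals (as the reverse complement when on the other strand, with overlapping matches run together), and all sequences run 5′ to 3′ in the direction of the gene, on GRCm38.p6 from RefSeq. Isg15 lies at chr4:156200855-156200915 on the minus strand, with 3 matches, the nearest 65 bases before the start. Ifit1 lies at chr19:34640765-34640832 on the plus strand, with 2 matches, the nearest at 85 bases. Oasl1 lies at chr5:114923043-114923112 on the plus strand, with 2 matches, the nearest at 156 bases. Cxcl10 lies at chr5:92349073-92349121 on the minus strand, with 1 match at 212 bases. A match describes the letters and is not evidence of binding.
Isg15: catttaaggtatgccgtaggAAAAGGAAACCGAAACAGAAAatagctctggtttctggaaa
Ifit1: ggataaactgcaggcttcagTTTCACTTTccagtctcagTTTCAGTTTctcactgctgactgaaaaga
Oasl1: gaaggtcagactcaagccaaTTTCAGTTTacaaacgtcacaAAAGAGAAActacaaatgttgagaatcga
Cxcl10: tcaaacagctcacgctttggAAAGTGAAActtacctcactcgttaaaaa
Of these, Ifit1, an RNA-binding antiviral protein, had 7.57 to 13.6 FPKM in HFLMCD-diet livers and 1.53 to 3.03 in NASH-diet livers (log2 fold change -1.63, adjusted p = 0.000407). Bst2, one of the 2 members called higher, also held a match, and so did Irgm1, Irgm2 and Igtp, which were not called.

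Antigen presentation was lower, more so for class II. All 8 class II genes tested were lower (median -2.45). H2-Aa, the alpha chain of the class II molecule, had 142, 246, 157 and 141 FPKM in livers 9 to 12 and 9.04, 16.1, 34.8 and 22.4 in livers 17 to 20 (log2 fold change -2.43, SE 0.34, adjusted p = 0.000198), with liver 10 the highest. The invariant chain Cd74 was at -2.45, the loading factor H2-DMa at -2.39 and the protease Ctss at -3.24. Class I genes had 10 lower and 0 higher of 14 (median -0.71), with the immunoproteasome subunit Psmb8 at -0.81 and H2-Q4 at -0.99. The H2-Q genes are similar copies and uncertain. H2-K1, a classical class I gene, was not called (-0.23, adjusted p = 0.0633), but was without liver 19 (-0.27, adjusted p = 0.0381) and by DESeq2 and limma-voom.

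Matrix genes were higher in HFLMCD-diet livers than in NASH-diet livers. Of 33 tested collagen and matrix genes, 31 were lower in NASH-diet livers, 28 by at least 2-fold, and 1 was higher (median -2.11). Col1a1, the main fibrillar collagen chain, had 57.9, 91.6, 52.1 and 68.1 FPKM in livers 9 to 12 and 1.74, 2.15, 3.31 and 4.01 in livers 17 to 20 (log2 fold change -3.97, SE 0.26, adjusted p = 2.74e-06). Col3a1 was at -3.87, the cross-linking enzyme Lox at -3.82, the small proteoglycan Lum at -2.53 and the growth factor Tgfb1, which drives collagen synthesis, at -2.01. Enzymes that degrade matrix, and their inhibitor, went the same way, with Mmp2 at -2.69, Mmp13 at -5.25 and Timp1 at -3.07. Timp1 had 5.82, 8.0, 6.70 and 10.8 FPKM against 0.57, 0.11, 0.39 and 1.26, and without liver 20 it was at -3.72, with Mmp13 at -5.89. The higher member was Fn1, plasma fibronectin of hepatocytes, at 0.86 with overlapping FPKM.

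Markers of the cells around the hepatocytes differed less. Stellate and myofibroblast markers had 10 lower and 1 higher of 15 (median -0.69). Acta2, the smooth muscle actin of myofibroblasts, had 4.91 to 8.27 FPKM against 0.77 to 1.28 (-2.18, adjusted p = 1.48e-05), and Vim was at -1.94 and the platelet-derived growth factor receptor Pdgfrb at -1.27, while Ecm1 was the higher one. Cholangiocyte and ductular markers had 6 lower and 0 higher of 10 (median -1.10), with osteopontin Spp1, also made by macrophages, at -2.18, Sox9 at -0.94 and Cftr at -3.13 from 0.12 to 0.43 FPKM. Krt19, the defining keratin of bile ducts, was not called (-0.55, adjusted p = 0.226). Sinusoidal endothelium had 3 lower and 0 higher of 14 (median -0.22, and 0.08 without liver 10), namely Cd34 at -1.86, Mrc1 at -0.88 and Stab1 at -0.64. Stab2 was not called (-0.38, adjusted p = 0.104), and without liver 12 it was (-0.50, adjusted p = 0.0389).

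**Figure D4:**
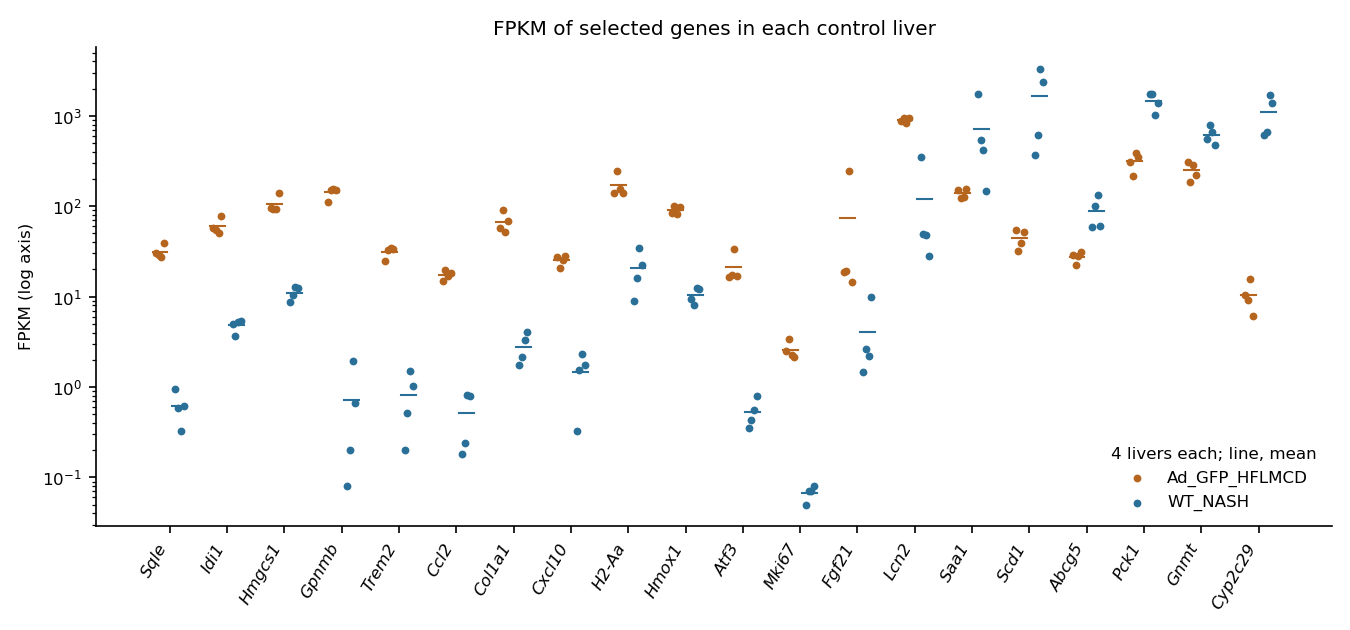
FPKM on a log axis of 20 genes in each of the 4 HFLMCD-diet livers (brown) and 4 NASH-diet livers (blue), with the mean of the 4 as a line. The groups overlap for Saa1 alone among these genes, liver 11 stands above its group for Fgf21 at 244 FPKM, and liver 17 stands above its group for Lcn2 at 349 FPKM.

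Cell division genes were lower in NASH-diet livers, with 24 lower and 0 higher of 27 (median -2.61), 22 of them by at least 2-fold. The proliferation marker Mki67 had 2.51, 3.41, 2.27 and 2.16 FPKM in livers 9 to 12 and 0.05, 0.07, 0.07 and 0.08 in livers 17 to 20 (log2 fold change -4.58, SE 0.19, adjusted p = 4.93e-07). Foxm1, a regulator of mitosis, was at -4.12, the mitotic cyclin Ccnb1 at -4.60 (-5.40 without liver 19) and the G1 cyclin Ccnd1 at -2.61. Ccnd1 was far more abundant than the mitotic genes, with 94.9 to 152 FPKM against 5.12 to 26.4. Members of the p53 response were lower in 13 and higher in 2 of 19 (median -0.60). Cdkn1a, the cell cycle inhibitor p21, had 16.6 to 25.4 FPKM in HFLMCD-diet livers and 9.46, 1.38, 1.00 and 4.11 in livers 17 to 20 (-1.83, and -2.74 without liver 17). Phlda3 was at -2.84 and Trp53 at -0.76. The higher ones were Fas at 0.60 and Casp8 at 0.23, at -0.03 and -0.40 on the FPKM scale, and the Casp8 call (adjusted p = 0.0412) ended without liver 9, 11, 12, 17 or 20.

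Oxidative stress genes were lower as well. Of 26 genes of the Nrf2 response, glutathione and the pentose phosphate pathway, 17 were lower and 4 higher (median -0.63). Hmox1, heme oxygenase, had 82.8 to 101 FPKM in HFLMCD-diet livers and 8.10 to 12.5 in NASH-diet livers (log2 fold change -2.50, SE 0.12, adjusted p = 9.5e-07), and Nqo1, the quinone reductase, had 9.21 to 13.4 against 1.26 to 2.87 (-1.92). The cystine transporter Slc7a11 was at -4.66 (-5.55 without liver 19), from 0.64 to 0.90 FPKM, the NADPH source G6pdx at -1.79 and Nfe2l2, which encodes Nrf2, at -1.46. Gstm2 (-3.24), Gstm3 (-4.87) and Gsta1 (-2.67) have close relatives with which reads can be shared, and their values are uncertain. The 4 members higher on counts were the scavenging enzymes Cat, Sod1, Sod2 (0.40) and Gpx1 (0.38). Mean FPKM of the last 2 was lower in NASH-diet livers, at 40.6 for Sod2 and 1250 for Gpx1, against 47.4 and 1480 in HFLMCD-diet livers. Lysosomal genes had 14 lower and 2 higher of 21 (median -0.76). The higher ones were Lamp2 and Mcoln1, the latter at 0.37 with mean FPKM of 20.9 in HFLMCD-diet livers and 17.6 in NASH-diet livers. The proton pump subunit Atp6v0d2 of this list was at -4.51, from 18.1 to 23.4 FPKM. Its members with the lowest values, Atp6v0d2, Cd63 (-3.26) and Ctss (-3.24), moved with the macrophage markers (median -3.27, summed FPKM 1348 to 1903 against 61.7 to 137), whose list also holds Cd63, and the part of these cells was not tested. Iron genes had 8 lower and 3 higher of 15 (median -0.29). Transferrin receptor Tfrc was at -1.59, and the higher ones were Tfr2 at 1.51, the hormone hepcidin Hamp at 1.18 and the zinc and iron transporter Slc39a14 at 1.65.

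Genes of endoplasmic reticulum stress and the integrated stress response went both ways. Of 23 genes, 9 were higher and 6 lower (median 0.30, but -0.36 on the FPKM scale). The 6 lower ones, Atf3, Asns, Mthfd2, Psat1, Ddit3 and Trib3, are genes of the integrated stress response, and so are 2 of the higher ones, Chac1 and Ppp1r15a (0.74, adjusted p = 0.000196). Atf3, a stress-induced factor, had 16.5, 17.5, 33.4 and 17.0 FPKM in livers 9 to 12 and 0.35, 0.43, 0.55 and 0.79 in livers 17 to 20 (log2 fold change -4.67, SE 0.31, adjusted p = 2.81e-06). The asparagine synthetase Asns was at -3.35 (-3.99 without liver 20) and Ddit3, which encodes CHOP, at -1.49. Chaperone-side genes Creld2 (1.67) and Herpud1 (1.44) were higher, and so was Chac1, which degrades glutathione, at 2.09. Chac1 had 1.13, 1.08, 11.5 and 0.95 FPKM in livers 9 to 12 and 7.77 to 14.0 in livers 17 to 20. Its call (adjusted p = 0.035) ended without liver 9, 10, 12, 18 or 19, and without liver 11 it was 3.90 (adjusted p = 1.54e-05).

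Hormones of the stressed liver went both ways, with shares near those of all genes. Among 14 hepatokines and stress hormones, 5 were higher and 4 lower, beside 28.2% and 30.9% of all genes tested. The median was 0.36, but -0.42 on the FPKM scale. Fgf21, a hormone released in fasting and amino acid stress, had 18.8, 19.4, 244 and 14.4 FPKM in livers 9 to 12 and 1.48, 2.63, 2.19 and 9.90 in livers 17 to 20. Its log2 fold change of -3.58 (SE 1.05, adjusted p = 0.0144) rested in size on liver 11: without it the value was -1.5 (adjusted p = 0.0364), and without liver 20 it was -4.51. By limma-voom it was not called, and DESeq2 gave it no adjusted p. Gdf15, a stress cytokine that curbs appetite, had 13.4 to 42.2 FPKM against 2.59 to 4.26 (-2.0, adjusted p = 0.000824), and Lect2 and Inhbe were the remaining lower ones. Igfbp1, which binds growth factor and is induced in fasting, had 13.6, 12.4, 28.8 and 30.7 FPKM against 61.1, 75.2, 78.5 and 194 (2.85, adjusted p = 0.000269). Fetub was at 1.63 and Igf1 at 1.03, with Igfals (0.59) and Hgfac (0.53) also higher on counts. Mean FPKM of Igfals and Hgfac was 43.2 and 79.8 in HFLMCD-diet livers and 42 and 74.6 in NASH-diet livers.

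The acute phase was higher in NASH-diet livers for plasma proteins and opposite for one. Of 24 tested genes, 14 were higher and 1 lower (median 0.95). The fibrinogen chains Fga and Fgg were at 2.25 and 2.23, and the metallothioneins Mt1 and Mt2, which bind zinc, at 4.01 and 3.78. Saa1, serum amyloid A, had 151, 125, 128 and 157 FPKM in livers 9 to 12 and 1750, 535, 415 and 148 in livers 17 to 20, so that liver 20 lay within the HFLMCD-diet range (log2 fold change 3.0, SE 0.64, adjusted p = 0.00244, and 2.02 without liver 17). Lcn2, an iron-trapping protein, went the other way, with 864, 941, 832 and 939 FPKM against 349, 49.6, 48.2 and 28.2. Its log2 fold change was -2.25 (SE 0.72, adjusted p = 0.0212), -3.79 without liver 17, and the call ended without liver 18 (adjusted p = 0.0532) or 19 (0.0513).

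Clock genes give a view of the hour of dissection, which the sources used here do not state. Of 17 tested, 8 were higher and 2 lower, Per2 and Bhlhe41 (median 0.33, but -0.33 on the FPKM scale), against 59.1% of all genes called. Bhlhe41, at -0.68, lost its call without liver 10 (adjusted p = 0.0555). Arntl, which peaks opposite to Dbp, had 0.47 to 0.87 and 0.37 to 0.45 FPKM and was not called (-0.10, adjusted p = 0.734), and Dbp had 82.2 to 105 and 30.4 to 62.3 (-0.40, adjusted p = 0.0992, and -0.58 with 0.0206 without liver 19). Nfil3, a repressor that opposes Dbp, was at 2.05 and Hlf at 0.92. Blood genes were higher in NASH-diet livers, with 6 of 7 erythroid markers higher and 0 lower (median 2.33). The summed FPKM of the list was 708 to 1131 against 1755 to 4047. Beta-globin Hbb-bs had 188 to 324 FPKM against 522 to 1224 (2.33), and Alas2, which makes heme in red cell precursors, was at 1.25. Of the adipocyte and pancreas markers 1 could be tested, and it was not called.

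The mouse lines differ by label, and 1 gene that varies between laboratory strains was checked. Nnt, a mitochondrial transhydrogenase that some C57BL/6 substrains lack in full-length form, had 50.3, 49.2, 51.8 and 48.6 FPKM in livers 9 to 12 and 8.57, 9.71, 12.8 and 10.49 in livers 17 to 20 (log2 fold change -1.64, SE 0.11, adjusted p = 2.81e-06). The level is not 0 in either group, and a genotype was not read from these tables.

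The largest single differences came mostly from gene families and from genes near 0 in one of the 2 control groups. For 6 of them (Hba-a2, Camk2b, Sectm1b, Eno1b, Eif4a3l1 and Corin) the other HFLMCD-diet group of the series, given below, had a mean far from that of the Ad_GFP_HFLMCD livers. Among genes whose livers did not overlap and whose higher group averaged 1 FPKM or more, the 10 largest higher values were Hba-a2 (8.71), Mup9 (8.58), Mup15 (8.25), Cyp2c29, Moxd1 (7.24), Mup7, Mup12 (7.06), Mup16 (7.01), Mup17 (6.82) and Camk2b (6.68). The Mup genes are near-identical copies on 1 cluster and their division of reads is uncertain. Summed over the 21 Mup genes in the tables they took 3.26% to 4.31% of all FPKM in HFLMCD-diet livers and 13.6% to 20.4% in NASH-diet livers. Hba-a2 had 1.80 to 2.48 FPKM against 358 to 786, while its near-identical copy Hba-a1 had 461 to 732 against 772 to 1823 (1.65), so the split between the copies is uncertain as well. Moxd1, a copper monooxygenase relative, had 4.66, 2.51, 0.69 and 0.14 FPKM in livers 17 to 20 and at most 0.04 in livers 9 to 12. Camk2b, a calcium-dependent kinase, had 2.01 to 2.99 FPKM against 0.02 to 0.06.

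The 10 largest lower values were Sectm1b (-9.07), Eno1b (-8.97), Eif4a3l1, Vmn2r3 (-8.60), Corin (-7.80), Pls1 (-7.46), Pbk (-7.42), Vsig8 (-7.09), Kifc1 (-6.99) and Gpnmb. Corin, a protease that activates natriuretic peptide, had 6.58 to 7.34 FPKM in livers 9 to 12 and 0.01 to 0.03 in livers 17 to 20. Sectm1b had 8.58 to 10.4 FPKM against 0.00 to 0.02, and Pls1, an actin-bundling plastin, 5.05 to 8.01 against 0.01 to 0.03. Pbk and Kifc1 are genes of dividing cells. Eif4a3l1 was at 0 in all 4 NASH-diet livers, and its counts were at least 48.9-fold lower there, taking 3 counts over the group as the floor. Eno1b had 184, 80.1, 0.37 and 86.0 FPKM in livers 9 to 12, and it and Eif4a3l1 are near-identical copies of other genes and uncertain. Values of genes near 0 moved with single livers: without liver 19 Vmn2r3 was at -11.26, Vsig8 at -11.15 and Pbk at -9.29, and without liver 18 Kifc1 was at -9.76. Eno1b was at -9.98 without liver 19 and -8.29 without liver 9. Among the higher genes, Mup9 was at 10.32 without liver 12, Mup15 at 9.46 without liver 11, and Mup16 and Moxd1 at 6.22 and 6.36 without liver 17.

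The remaining 8 livers of the series allow the same diets to be compared in other libraries. The LKO_NASH livers (21 to 24, floxed mice given Cre from the TBG promoter) and the Ad_Chrebpa_HFLMCD livers (13 to 16, wildtype mice given adenovirus for Chrebpα) share no library with the control livers, but they come from the same experiments and carry a ChREBPα manipulation in opposite directions. There, 5503 of 13393 genes (41.1%) were called, 2719 (20.3%) higher under the NASH diet and 2784 (20.8%) lower, with 420 (3.14%) and 1500 (11.2%) past 2-fold. Of the 7845 genes called in the control livers and tested in both, 7417 (94.5%) had the same direction, 4677 (59.6%) were also called in it and 10 were called in the opposite one. Of the 3010 genes past 2-fold, 2921 (97%) had the same direction, 2330 (77.4%) were called in it, and 6 were called in the opposite one, namely Adgrf1, Asb2, Atp10d, Rsc1a1, St6galnac2 and Wnk4. In the control livers the Asb2 call ended without liver 9, 10, 17, 18 or 20 and the Rsc1a1 call without liver 10, 11, 12, 17 or 18.

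These list medians had the same sign as in the control livers. The macrophage list had a median of -2.57 there, with 17 members called in the same direction in both pairs, cell cycle -1.83 (22 such members), inflammation -1.71 (20), matrix -1.44 (30) and cholesterol synthesis -0.85 (15). Hepatocyte markers had 0.67 (11) and fatty acid oxidation 0.78 (24). Sqle was at -4.40, Gpnmb at -4.77, Col1a1 at -2.41, Scd1 at 6.85 and Cyp2c29 at 4.2. Other values were smaller, opposite in sign or not called in that pair. Cholangiocyte markers had a median of 0.03 with 1 member called in the same direction in both, and female-biased genes 2.26 with 1. Acute phase genes had -0.08 with 6 such members. Resident Kupffer cell markers had 0.07 and sinusoidal endothelium 0.26, against -0.15 and -0.22 in control livers, each with 1 such member. The 1 adipocyte or pancreas marker tested in control livers was at -1.16, against 0.36 there. A median in that pair covers only the members tested there. Cholangiocyte Cftr (-3.13 in control livers) and female-biased Cyp3a44 (-3.83) were not tested there. Saa1 was at -0.09 (adjusted p = 0.916), Gdf15 at -0.03 (0.97), Fgf21 at -0.95 (0.0606), Acta2 at -0.65 (0.156) and Camk2b at 0.49 (0.0952). Whether these differ between the 2 pairs was not tested. Several of the genes with the largest differences between the control groups had means far apart in the 2 HFLMCD-diet groups. The mean FPKM in Ad_GFP_HFLMCD and Ad_Chrebpa_HFLMCD livers was 7.01 and 0.04 for Corin, 9.74 and 0.10 for Sectm1b, 87.5 and 0.11 for Eno1b, 1.17 and 0 for Eif4a3l1, 2.03 and 129 for Hba-a2 and 0.04 and 3.62 for Camk2b. Corin, Sectm1b, Eno1b and Eif4a3l1 were too low to be tested in the second pair, and Hba-a2 was at 3.19 there (adjusted p = 0.000192). Differences between the HFLMCD-diet groups were not tested.

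**Figure D5:**
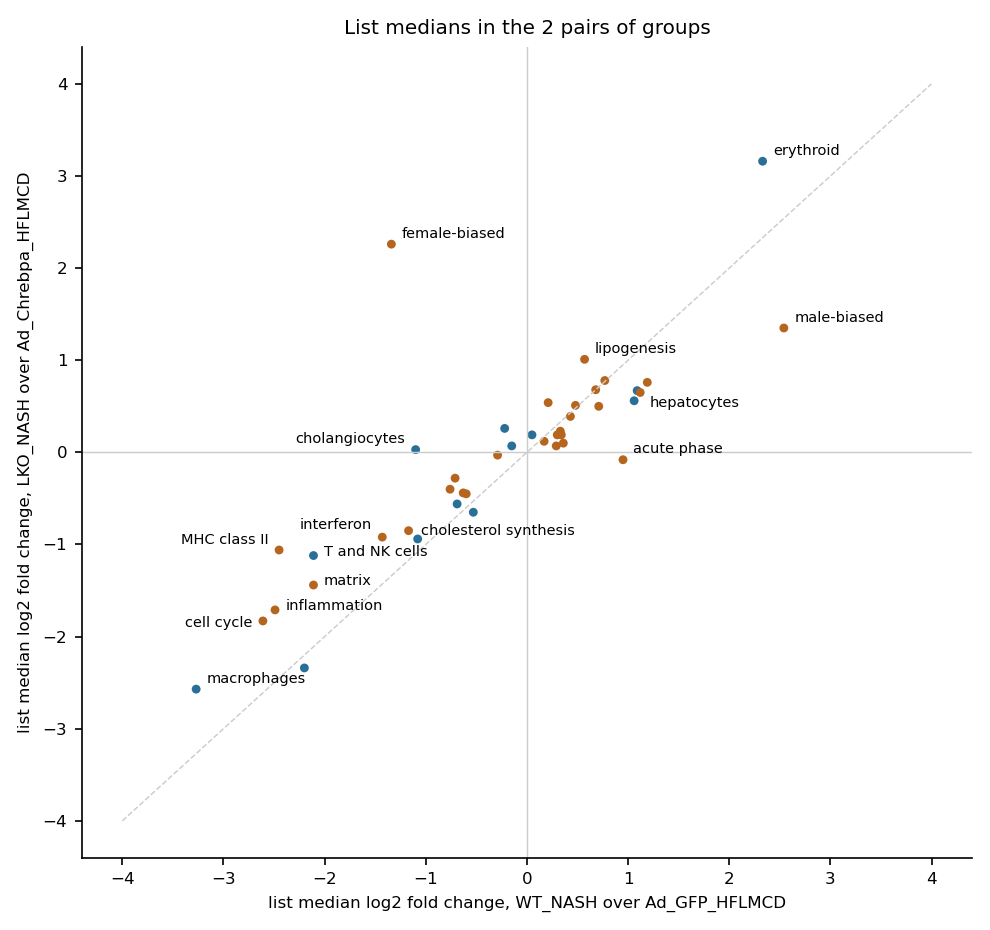
Median log2 fold change of each gene list with at least 4 tested members in control livers (horizontal axis) and in the livers with a ChREBPα manipulation (vertical axis), NASH diet over HFLMCD diet in both, blue for cell type markers and brown for pathways, with equality as the dashed line. Macrophages lie at -3.27 and -2.57, and the list of female-biased genes is the one farthest from the line, at -1.34 and 2.26. Its member Cyp3a44 was tested in control livers only, so these 2 medians cover different genes.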

How the data were processed

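RNA-seq of whole liver was compared between 4 WT_NASH and 4 Ad_GFP_HFLMCD livers. The authors deposited for each library expected counts, estimated reads per gene that are not normalised, and FPKM, both per the file headers. HISAT2 is named in the submitters' processing notes, with its version and the genome build not given in the sources used here. The 17436 entries gave 17410 genes, of which 17371 matched the RefSeq table of GRCm38.p6. In that step 26 entries named by transcript were summed, and 22 symbols turned into dates in the table of liver 9 were restored. A gene not listed was taken as 0.

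Expected counts were rounded, filtered with filterByExpr, scaled by TMM and tested with edgeR 4.0.16 (quasi-likelihood test, Benjamini-Hochberg adjustment over all genes tested, threshold 0.05), using limma 3.58.1, DESeq2 1.42.0, R 4.3.3, Python 3.11.15, pandas 2.3.3 and matplotlib 3.10.9. Alternatives were DESeq2 and its size factors, limma-voom, no filter, only genes averaging 1 FPKM or more, limma on log2(FPKM + 1) and log2(FPKM + 0.1), all 16 libraries in 1 fit, and leaving out each liver. Centring each FPKM library was added after seeing the data. The scripts were tested on simulated data. Members and lists were chosen with earlier results of these data known. Genes named are anchors of each list, in every list the pair of called genes ranked first by adjusted p, whatever their direction, and the 10 largest called changes per direction whose higher group averaged 1 FPKM or more and whose livers did not overlap, without predicted genes and pseudogenes. Further examples were chosen after their values were seen. Some genes under this rule are not reported here. Promoters run from 250 bases before to 50 after a start, printed with 20 bases on each side of the matches.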

Additional observations from a re-analysis of the deposited data

Results flagged for a closer look

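In 36 of 498 groups of 4 livers examined, 1 liver stood apart from the other 3 by more than Dixon's 95% critical value, a gap that chance gives in about 1 in 20 groups. Among HFLMCD-diet livers, liver 11 was high for Fgf21 (243.83 FPKM, others 14.42 to 19.43), Chac1 (11.54, others 0.95 to 1.13), Atf3 (33.44, others 16.46 to 17.49), Ddit3 (23.46, others 9.03 to 11.32) and Hlf (14.86, others 13.39 to 13.49). The first 4 are genes induced by amino acid or endoplasmic reticulum stress. Liver 10 was high for H2-Aa (245.65 FPKM), H2-DMa (19.27), Il18bp (46.64), Ccr2 (8.13), Hk1 (4.47) and Serpina1e (803.71), of which the first 4 are genes of immune cells. Liver 12 was high for Hmgcs1 (141.21 FPKM) and Cdh1 (29.25) and low for Cpt1a (158.37) and Gzma (1.81). Liver 9 was low for Gpnmb (112.53 FPKM, others 149.1 to 155.09) and Atp6v0d2 (18.1, others 22.48 to 23.37).

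Among NASH-diet livers, liver 17 was high for Lcn2 (349.39 FPKM, others 28.19 to 49.64) and Hnf4a (214.08) and low for Alb (31445.38, others 40019.29 to 41244.96), Cd8a (0.08), Hk2 (0.08) and Flt3 (0.01). Liver 20 was high for Fgf21 (9.9 FPKM, others 1.48 to 2.63), Igfbp1 (193.72, others 61.13 to 78.53) and Acta2 (1.28). Liver 19 was high for Bst2 (143.72 FPKM), Tfrc (2.49), Mvk (2.29) and Asb2 (0.62). It was the only NASH-diet liver with any Vsig8 (0.08 FPKM), Vmn2r3 (0.02) or Pbk (0.01). Its library was also the largest of the group, with 40327264 expected counts (others 21254937 to 33361940). Liver 18 was high for Acot1 (42.19 FPKM) and Atp10d (1.05), and it alone had any Kifc1 (0.04). A gene absent from the rest of its group passes this rule at any value.

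Wnk4, a kinase that regulates ion transport, had a mean of 1.0525 FPKM in WT_NASH livers, each above every Ad_GFP_HFLMCD liver, while every LKO_NASH liver was below every Ad_Chrebpa_HFLMCD liver. The difference between the 2 pairs of groups was not tested.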

How the results depend on the processing

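On the authors' FPKM scale the split of calls changed: 755 genes were higher and 9898 lower with log2(FPKM + 1), and 758 and 9919 with log2(FPKM + 0.1), with 172 and 247 genes at least 2-fold higher and, with the smaller pseudocount, 3874 at least 2-fold lower. Restricting to a mean FPKM of at least 1 left 1425 genes at least 2-fold lower. The cause was not tested. Leaving out 1 liver gave 3401 to 3757 genes higher, 3820 to 4048 lower, 749 to 821 at least 2-fold higher and 2231 to 2475 at least 2-fold lower, and 2023 to 3411 higher and 2303 to 3480 lower in the second pair of groups. With log2(FPKM + 1) and log2(FPKM + 0.1) these medians turned sign: pericentral markers -0.57 and -0.59, adipocyte and pancreas markers -0.09 and -0.23, LXR targets -0.24 and -0.27, bile acids -0.19 and -0.20, lipogenesis -0.26 and -0.33, glycerolipids -0.20 and -0.25, glucose and fructose -0.51 and -0.51, phosphatidylcholine -0.42 and -0.46, hepatokines -0.31 and -0.42, stress responses -0.33 and -0.36, clock -0.26 and -0.33, and Y-linked genes -0.26 and -0.32. Genes did so as well: Cyp7a1 at -0.52 and -0.53, Cpt1a at -0.15 and -0.15, Ddx3y at -0.15 and -0.16, Jchain at -0.13 and -0.17, Bst2 at -0.24 and -0.24, Iigp1 at -0.16 and -0.17, Fas at -0.03 and -0.03, and Casp8 at -0.38 and -0.40. Pericentral markers had -0.01 with a mean FPKM of at least 1 and -0.10 to 0.14 without 1 liver, the lowest without liver 17. Kupffer cell markers had 0.05 with centred libraries and -0.32 to 0.21 without 1 liver, and endothelial markers -0.37 to 0.08, both highest without liver 10. With log2(FPKM + 0.1), 29 further list medians moved by more than the spread between livers. Of 249 named genes tested, 232 were called, and the result of 230 held without each single liver. The fit of all 16 libraries ended the calls of Timd4, Jchain, Iigp1 and Casp8, and limma-voom those of Srebf1, Fgf21, Eno1b, Elovl5, Asb2 and Rsc1a1. No paired analysis was possible because the 2 groups share no replicate numbers.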

Other observations

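The make-up of the RNA differed as well as single genes. The 100 most abundant genes took 38% to 39.8% of all FPKM in HFLMCD-diet livers and 55.1% to 58.1% in NASH-diet livers, without overlap. Alb took 4.86% to 5.95% and 5.39% to 7.33%, and the 11 apolipoprotein genes 5.12% to 5.5% and 5.94% to 7.99%. Genes with an FPKM of at least 1 numbered 11271 to 11575 and 9796 to 10056.

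In all 4 HFLMCD-diet livers 23 genes had an FPKM of at least 1 while all 4 NASH-diet livers had at most 0.1, and 2 genes (Camk2b and E030018B13Rik) showed the reverse. The 23 include Mki67, Foxm1, Kifc1, Cdc6, Pbk, Knstrn, Ckap2, Ckap2l, Cdkn3 and Cep55, genes of dividing cells, the matrix genes Lox and Ltbp2, and Siglecf, a receptor of eosinophils and some macrophages.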
